A study of Mus musculus with 4 samples.

Results

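The Hox cluster genes of the mouse were described in 3 cell lines profiled by single-cell RNA sequencing. Members were the listed genes whose symbol is Hoxa, Hoxb, Hoxc or Hoxd followed by digits alone, which gave 39 of the 33565 genes listed. The HoxA cluster contributed 11 of them, HoxB 10, HoxC 9, and HoxD 9. The lines were Neuro-2a (N2a), derived from a mouse neuroblastoma, NIH/3T3, derived from fibroblasts of mouse embryos, and E14TG2a mouse embryonic stem cells (mESCs). N2a and NIH/3T3 cells were cultured in DMEM containing 10% serum and antibiotics, without the inhibitors or the cytokine given to the mESCs. The mESCs were kept on gelatin in 15% serum and antibiotics with leukemia inhibitory factor at 1000 U/ml, the GSK3 inhibitor CHIR99021 at 3 μM, and the MEK inhibitor PD0325901 at 1 μM. Each line was 1 culture without genetic modification named in the labels and was barcoded in its own wells of the first barcoding plate (BC1). The lines were then pooled, and their later barcoding and sequencing were shared. Each line was represented by 1 set of counts split from the pool by BC1, called its library here. No test between lines was therefore possible, and no p-value is given.

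Hox genes encode homeodomain transcription factors that give cells along the head-to-tail axis of the embryo their positional identity. They stand in 4 clusters on different chromosomes, and the genes in matching places of the clusters form paralog groups numbered from 1 to 13. Low-numbered groups are used toward the head, high-numbered groups toward the trunk, tail, and distal limb, and cells in culture often keep the Hox pattern of their place of origin. In undifferentiated embryonic stem cells, the clusters are known as targets of Polycomb repression.

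Barcodes below 1000 UMIs or above 20% mitochondrial UMIs were left out, which kept 2323 N2a cells, 2037 NIH/3T3 cells, and 2137 mESCs. Their summed UMIs were 17955221 in N2a, 11697865 in NIH/3T3, and 12322098 in the mESCs, and the median per cell ranged from 4803 to 6185. No cell barcode was shared between the lines (0 barcodes). Levels are given as CPM, the UMIs of a gene summed over the cells of a line per 1000000 UMIs, with exact Poisson intervals at the 95% level, and these intervals cover the counting error alone. Where no UMI was found, 3 UMIs were set as the limit for folds, or 0.243 CPM for mESCs, 0.256 for NIH/3T3, and 0.167 for N2a. The labels were compared with marker genes: Pou5f1 (57.8 CPM), Zfp42 (1318), and Dppa5a (1821) were high in the mESC library, and Col1a1 (28.6), Col1a2 (461), and Cav1 (233) in the NIH/3T3 library. Hand2, a gene of sympathetic neuroblasts, reached 404 CPM in the N2a library, whereas the neuronal gene Stmn2 went against that label, with 0.334 CPM in N2a and 162 CPM in the mESCs. In the lines that should lack them, the 3 mESC markers, the 3 NIH/3T3 markers, and Hand2 were found at 0.0592% to 0.624% of the level in the line they mark, apart from Col1a1 in mESCs at 2.56% (9 UMIs). The low values of Hoxa7, Hoxa9, Hoxb6, and Hoxd8 in N2a, of 1 or 2 UMIs each, were 0.175% to 0.574% of the value in the line with the highest level. These shares lay in the range of the marker values, and transfer of UMIs between lines was not tested.

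For 8 of the 39 genes, the deposited counts were treated as unreadable. Hoxa4, Hoxa5, and Hoxa6 lie wholly inside the annotated model of Hoxa3 on the same strand, Hoxc6, Hoxc8, and Hoxc9 lie wholly inside that of Hoxc5, 85.7% of Hoxc10 lies inside it, and Hoxd4 lies inside that of Hoxd3. All 8 had 0 UMIs in all 3 lines. The same was seen over the whole gene list, Hox genes included. Of the 327 protein-coding genes lying wholly inside other listed genes of the same strand, 264 (80.7%) had 0 UMIs in all 3 lines. Without any other listed gene on their strand, 2730 of 19992 (13.7%) had 0 UMIs. For genes lying inside a listed gene of the opposite strand, the share was 157 of 859 (18.3%). The counts of these 8 genes are therefore reported as unreadable rather than as absence, and the other 31 genes, whose models are at least 25% free of other listed genes, are called readable. This threshold was set after the zeros had been seen. The models are those of GENCODE M39, whereas the paper counted on an earlier release, and the counting mode was not given. Of the exon bases of the 8 genes, 86.9% to 100% are free of exons of other listed genes. Whether the zeros arose from the overlap was not tested.

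Promoter sequence is shown for 3 genes that were on in different sets of lines: Hoxa7, which was on in NIH/3T3 and mESCs, Hoxb6, which was on in NIH/3T3 alone, and Hoxc4, which was on in N2a and NIH/3T3. Each window covers 250 bases before and 50 bases from the start of the canonical transcript of GENCODE M39 on the GRCm39 genome and is written in the direction of transcription, with CpG dinucleotides in capitals. All 3 windows lie within their gene models, which extend further upstream of the canonical start.
Hoxa7 (chr6:52194436-52194735, minus strand): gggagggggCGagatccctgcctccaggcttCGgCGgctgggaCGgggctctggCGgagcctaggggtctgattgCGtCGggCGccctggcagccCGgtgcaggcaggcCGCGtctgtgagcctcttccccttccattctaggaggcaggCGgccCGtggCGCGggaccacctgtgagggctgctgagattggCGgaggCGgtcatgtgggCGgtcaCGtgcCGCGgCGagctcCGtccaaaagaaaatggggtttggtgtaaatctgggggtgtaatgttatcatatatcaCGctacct
Hoxb6 (chr11:96189331-96189630, plus strand): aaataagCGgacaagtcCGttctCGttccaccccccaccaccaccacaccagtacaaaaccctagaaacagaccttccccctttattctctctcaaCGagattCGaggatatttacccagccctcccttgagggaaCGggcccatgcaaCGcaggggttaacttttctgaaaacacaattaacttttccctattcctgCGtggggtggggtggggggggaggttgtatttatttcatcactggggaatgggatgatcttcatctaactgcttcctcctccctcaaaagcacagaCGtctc
Hoxc4 (chr15:102942571-102942870, plus strand): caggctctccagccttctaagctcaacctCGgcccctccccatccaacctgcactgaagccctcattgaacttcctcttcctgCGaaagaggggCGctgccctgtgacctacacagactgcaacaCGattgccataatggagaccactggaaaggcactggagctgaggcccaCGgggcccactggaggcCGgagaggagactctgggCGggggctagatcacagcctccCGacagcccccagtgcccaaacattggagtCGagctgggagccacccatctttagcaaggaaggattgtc
These windows hold 24 CpGs in Hoxa7, 9 in Hoxb6, and 9 in Hoxc4. Over all 39 Hox genes, the median was 14 CpGs per window (range 4 to 47), against 11 over 21290 protein-coding genes. The 14 Hox genes that were on in at least 1 line had a median of 15 and the 17 readable genes that were on in none had a median of 14, so these medians lay close together. By cluster, the median was 24 in HoxA, 13.5 in HoxB, 16 in HoxC, and 13 in HoxD.

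The windows were also searched on both strands for TGATNNAT, the form of the joint Pbx and Hox binding motif through which Hox proteins can act on Hox genes. It was found in 11 of the 39 Hox windows (28.2%) and in 7.60% of all protein-coding windows. The matches were unequal between clusters: 7 of 10 HoxB windows held it, against 3 of 11 in HoxA, 1 of 9 in HoxC, and 0 of 9 in HoxD. The matches of 6 HoxB genes are shown with the motif in capitals, and on the opposite strand the motif reads ATNNATCA. Hoxb7 has 2 matches.
Hoxb1 (chr11:96256411-96256440, plus strand): tgattggggggTGATGGATgggcgctggga
Hoxb2 (chr11:96242443-96242472, plus strand): catacgcttgtATTTATCAgcaatatacaa
Hoxb3 (chr11:96214022-96214051, plus strand): tacagaaaaccATTAATCActtcttttctt
Hoxb5 (chr11:96194356-96194385, plus strand): ataattcattaATACATCAtaaatcgtgaa
Hoxb7 (chr11:96177308-96177337, plus strand): tcccattcattATTGATCAtattttataaa
Hoxb7 (chr11:96177477-96177498, plus strand): ctaattctgtaATATATCAagg
Hoxb8 (chr11:96172709-96172738, plus strand): ataataaggaaATTGATCAttaaagcttta
The motif was found in 4 of the 14 Hox windows of genes on in at least 1 line (28.6%) and in 7 of the 17 windows of readable genes on in none (41.2%). The TATA sequence TATAAA was present in 17.9% of the Hox windows and in 13.2% of all. A match in this window is a sequence feature and was not read as a bound site.

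A gene was called on at 5 CPM or more. In N2a, 1 of the 39 Hox genes (2.56%) was on, whereas 31.3% of all listed genes were. In NIH/3T3, 8 Hox genes (20.5%) were on against 30.4% of all listed genes, and in mESCs also 8 (20.5%) against 32.1%. Against protein-coding genes with a readable model, of which 48.0% were on in N2a, 46.4% in NIH/3T3, and 49.4% in the mESCs, the readable Hox genes stood at 3.23%, 25.8%, and 25.8%. All 3 shares of Hox genes were below the background, and that of N2a was the furthest below it.

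The 8 genes on in NIH/3T3 were Hoxa2, Hoxa3, Hoxa7, Hoxb6, Hoxc4, Hoxc5, Hoxd3, and Hoxd8. Among the 8 genes on in mESCs were Hoxa3, Hoxa7, Hoxa9, Hoxa10, Hoxb9, Hoxc13, and Hoxd13. Of the 14 genes on in at least 1 line, 11 were on in a single line, and none was on in all 3 lines (0 genes). Hoxa3 and Hoxa7 were shared by NIH/3T3 and mESCs, and Hoxc4 was shared by N2a and NIH/3T3. These counts of overlap are given without the matching share over all listed genes and describe the Hox genes alone. Detection was widest in mESCs, where 30 of the 31 readable genes had at least 1 UMI, against 16 in NIH/3T3 and 7 in N2a. Over all protein-coding genes, the median level was also highest in mESCs (4.22 CPM, against 3.17 in N2a and 2.05 in NIH/3T3). The share of all genes with a UMI is not given, so wide detection is not shown to be particular to Hox genes. Hoxd12, a gene of the distal limb, was the readable gene with 0 UMIs in all 3 lines.

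A gene was called higher in a line when its CPM + 1 was at least 4 times that of the higher of the other lines. None of the 39 genes met this in N2a (0 genes, with 2.47% of all listed genes meeting it), 4 did in NIH/3T3 (10.3%, against 2.17%), and 7 in the mESCs (17.9%, against 3.46%). Over protein-coding genes with a readable model, the background stood at 4.74% in mESCs, 2.77% in NIH/3T3, and 3.30% in N2a. The NIH/3T3 genes were Hoxa2, Hoxb6, Hoxd3, and Hoxd8, all from paralog groups 2 to 8. Of the mESC genes, 6 come from groups 9 to 13, namely Hoxa9, Hoxa10, Hoxb9, Hoxc12, Hoxc13, and Hoxd13. The plot of the levels shows this separation.

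**Figure D1:**
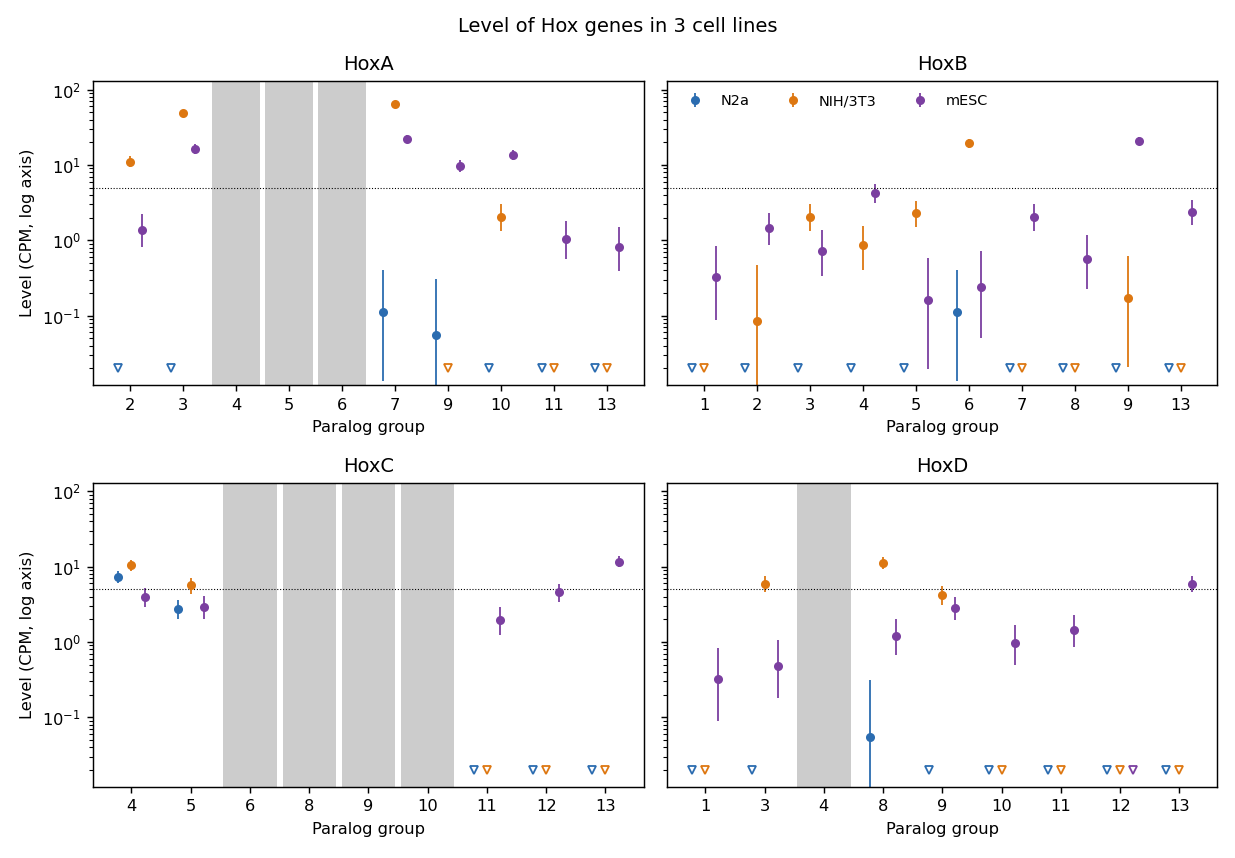
Level of Hox genes in CPM on a log axis, by cluster and paralog group, with exact Poisson 95% intervals, open triangles for 0 UMIs, gray bands for the 8 unreadable genes, and a dotted line at 5 CPM. N2a crosses the line at Hoxc4 (7.35 CPM), NIH/3T3 reaches its top value at Hoxa7 (63.8 CPM), and in paralog groups 11 to 13 every value above 0 belongs to mESCs.

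Summed over all 39 genes, the Hox level was 10.5 CPM in N2a (9.08 to 12.1, 189 UMIs), 189.9 in NIH/3T3 (182 to 198, 2222 UMIs), and 151 in the mESCs (144 to 158, 1859 UMIs). N2a was thus the low line, with a ratio of 18.0 for NIH/3T3 over N2a (15.5 to 21.0) and 14.3 for mESCs over N2a (12.3 to 16.7). NIH/3T3 exceeded mESCs by a ratio of 1.26 (1.18 to 1.34). That order rested on genes whose models span others: without Hoxa3, Hoxc5, and Hoxd3, the sums were 130.2 CPM in NIH/3T3 and 131 CPM in the mESCs.

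The HoxA cluster on chromosome 6 was nearly silent in N2a and was the leading cluster in the other lines. Its summed level was 0.278 CPM in N2a (0.0904 to 0.650, 5 UMIs), 128 in NIH/3T3 (121 to 134), and 79.6 in the mESCs (74.7 to 84.8). It held 67.2% of the Hox UMIs of NIH/3T3 and 52.8% of those of mESCs. These are shares of UMIs, not divided by transcript length.

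Within HoxA, NIH/3T3 and mESCs differed in the genes they used. Hoxa2, a selector of pharyngeal arch identity, had 0 UMIs in N2a, 11.1 CPM in NIH/3T3 (9.29 to 13.2), and 1.38 in the mESCs (0.804 to 2.21), a ratio of 8.06 for NIH/3T3 over mESCs (4.84 to 14.3). It was the HoxA gene called higher in NIH/3T3.

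Hoxa3 and Hoxa7 were the HoxA genes that NIH/3T3 and mESCs shared. Hoxa3, needed for thymus and parathyroid formation, had 0 UMIs in N2a, 48.2 CPM in NIH/3T3 (44.3 to 52.4), and 16.3 in the mESCs (14.1 to 18.7). Hoxa7, which patterns thoracic vertebrae, was at 0.111 CPM in N2a, 63.8 in NIH/3T3 (59.3 to 68.5), and 22.2 in the mESCs (19.6 to 24.9). The ratio of NIH/3T3 to mESCs was alike for both genes, 2.96 for Hoxa3 (2.51 to 3.49) and 2.88 for Hoxa7 (2.50 to 3.32). Per kb of exon, Hoxa7 was the leading Hox gene of NIH/3T3 with 22.1 CPM per kb, ahead of Hoxb6 with 8.37 and Hoxa3 with 7.00. In CPM, Hoxa7 also led, but Hoxa3 stood above Hoxb6 (19.4 CPM). UMIs counted at the transcript end need not scale with exon length, so values per kb, here and below, are description only.

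Beyond Hoxa7, the cluster was nearly empty in NIH/3T3 and continued in mESCs. Hoxa9, a gene of trunk patterning and of blood progenitors, had 1 UMI in N2a (0.0557 CPM), 0 UMIs in NIH/3T3, and 9.82 CPM in the mESCs (8.15 to 11.7). The mESC level was 38.3-fold the set limit of 3 UMIs in NIH/3T3, and the exact interval of the ratio began at 30.7. Hoxa10, which patterns the lumbar spine and the uterus, had 0 UMIs in N2a, 2.05 CPM in NIH/3T3 (1.31 to 3.05), and 13.6 in the mESCs (11.7 to 15.9). In NIH/3T3, Hoxa10 was therefore present while Hoxa9, on its 3′ side, was not detected. The genes at the posterior end, Hoxa11 (1.06 CPM) and Hoxa13 (0.812 CPM), had UMIs in mESCs alone, and per kb of exon they stood at 0.456 and 0.324 CPM per kb there, below Hoxa9 with 1.76 and Hoxa10 with 4.13.

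HoxB on chromosome 11 was led by different genes in NIH/3T3 and mESCs. The cluster was at 0.111 CPM in N2a (2 UMIs), 24.9 in NIH/3T3 (22.1 to 27.9), and 32.9 in the mESCs (29.8 to 36.3), a ratio of 1.32 for mESCs over NIH/3T3 (1.14 to 1.55). In NIH/3T3, Hoxb6, a gene of trunk and limb-bud mesoderm, gave 227 of the 291 HoxB UMIs, and in mESCs, Hoxb9, which patterns ribs, gave 257 of 406.

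Hoxb6 and Hoxb9 were close to exclusive of each other. Hoxb6 was at 0.111 CPM in N2a, 19.4 in NIH/3T3 (17.0 to 22.1), and 0.243 in the mESCs (3 UMIs), so that NIH/3T3 exceeded mESCs by a ratio of 79.7 (26.9 to 389). Hoxb9 had 0 UMIs in N2a, 0.171 CPM in NIH/3T3 (2 UMIs), and 20.9 CPM in the mESCs (18.4 to 23.6), a ratio of 122 for mESCs over NIH/3T3 (33.4 to 1013). Hoxb7 and Hoxb8, which stand between them on the chromosome, had no UMI in NIH/3T3 and 2.03 and 0.568 CPM in the mESCs. The remaining HoxB genes stayed below 5 CPM, with Hoxb4 in mESCs (4.22 CPM), Hoxb13 in mESCs (2.35), and Hoxb5 in NIH/3T3 (2.31) as the leading values.

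HoxC on chromosome 15 was the cluster that N2a expressed. Its summed level was 10.1 CPM in N2a (8.67 to 11.7), 16.1 in NIH/3T3 (13.9 to 18.5), and 25.1 in the mESCs (22.4 to 28.0), and it held 95.8% of the Hox UMIs of N2a (91.8% to 98.2%, exact binomial). All HoxC UMIs of N2a and of NIH/3T3 came from Hoxc4 and Hoxc5, genes of the neck region. Since Hoxc6 to Hoxc10 were treated as unreadable, how far the expression of the cluster extends beyond Hoxc5 cannot be told from these counts.

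Hoxc4 was at 7.35 CPM in N2a (6.15 to 8.72), 10.4 in NIH/3T3 (8.66 to 12.5), and 3.98 in the mESCs (2.94 to 5.26). It and Hoxc5 varied less between the lines than the other genes that were on: NIH/3T3 exceeded N2a by a ratio of 1.42 (1.10 to 1.83), and N2a exceeded mESCs by 1.85 (1.32 to 2.62). Hoxc5 was at 2.73 CPM in N2a (2.02 to 3.61), 5.64 in NIH/3T3 (4.36 to 7.18), and 2.92 in the mESCs (2.05 to 4.04), and the ratio of mESCs to N2a was 1.07 (0.676 to 1.68). Per kb of exon, Hoxc4 reached 2.86 CPM per kb in N2a, above Hoxc5 with 0.883. The N2a level of Hoxc4 was 70.5% of that in NIH/3T3. This share was higher than those of the marker genes other than Stmn2 in the lines that should lack them. Transfer of UMIs between lines was not tested.

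At the other end of the cluster, Hoxc11, Hoxc12, and Hoxc13 had UMIs in mESCs alone. Hoxc13, a regulator of hair keratin genes, had 0 UMIs in N2a and NIH/3T3 and 11.7 CPM in the mESCs (9.86 to 13.8). The mESC level was 69.9-fold the set limit of 3 UMIs in N2a and 45.6-fold that in NIH/3T3. The exact intervals of these ratios began at 56.2 and 36.6. Hoxc12 was at 4.54 CPM (3.43 to 5.90) and Hoxc11 at 1.95 CPM (1.25 to 2.90) in mESCs. The mESCs thus had UMIs of both ends of the readable HoxC genes.

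HoxD on chromosome 2 also had different leading genes in NIH/3T3 and mESCs. Its sum was 0.0557 CPM in N2a (1 UMI), 21.4 in NIH/3T3 (18.8 to 24.2), and 13.2 in the mESCs (11.3 to 15.4). Hoxd3 had 0 UMIs in N2a, 5.90 CPM in NIH/3T3 (4.59 to 7.46), and 0.487 in the mESCs (6 UMIs). Hoxd8 was at 0.0557 CPM in N2a, 11.3 in NIH/3T3 (9.44 to 13.4), and 1.22 in the mESCs (0.681 to 2.01), a ratio of 9.27 for NIH/3T3 over mESCs (5.42 to 17.0).

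Hoxd9 was below 5 CPM in both lines, with 4.19 CPM in NIH/3T3 (3.10 to 5.54) and 2.84 in the mESCs (1.98 to 3.95), and the intervals overlapped. From Hoxd10 on, no UMI was found in NIH/3T3 or N2a. Hoxd13, which shapes digits and genitalia, had 5.92 CPM in mESCs (4.64 to 7.45). This was 35.5-fold the set limit of 3 UMIs in N2a and 23.1-fold that in NIH/3T3. The exact intervals of these ratios began at 28.1 and 18.3. Hoxd10 and Hoxd11, in the same cluster, were at 0.974 and 1.46 CPM in the mESCs, and Hoxd1 at 0.325 CPM.

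Across the clusters, the lines differed in the paralog groups they used. In N2a, groups 4 and 5 held 69.8% and 25.9% of the Hox UMIs, through Hoxc4 and Hoxc5. In NIH/3T3, groups 1 to 3 held 36.8% of the Hox UMIs, groups 4 to 8 held 59.9%, and groups 9 to 13 held 3.38% (2.66% to 4.21%). In mESCs, the shares were 23.5%, 24.9%, and 51.6% (49.3% to 53.9%). Among the readable genes, the NIH/3T3 UMIs therefore fell mostly in groups 1 to 8, with few beyond group 8. Hoxa3 and Hoxd3, whose models span unreadable genes of higher groups, gave 564 and 69 of the 817 NIH/3T3 UMIs of groups 1 to 3. In mESCs, they gave 201 and 6 of 437. Whether these UMIs arose from group 3 was not tested. The mESC counts were spread from group 1 to group 13 with the largest share at the posterior end. Of the 16 genes of groups 9 to 13, 14 were readable, and the part of Hoxc9 and Hoxc10 in the posterior share cannot be told.

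The difference at the posterior end held for levels as well as shares. Groups 9 to 13 summed to 0.0557 CPM in N2a (1 UMI), 6.41 in NIH/3T3 (5.04 to 8.04), and 77.9 in the mESCs (73.1 to 83.0), a ratio of 12.2 for mESCs over NIH/3T3 (9.60 to 15.6). Groups 11, 12, and 13 had 0 UMIs in both N2a and NIH/3T3 and 4.46, 4.54, and 20.8 CPM in the mESCs. Groups 4 to 8 had the reverse order, with 114 CPM in NIH/3T3 (108 to 120) and 37.5 in the mESCs (34.2 to 41.1), although 6 of the 15 genes of these groups were unreadable.

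**Figure D2:**
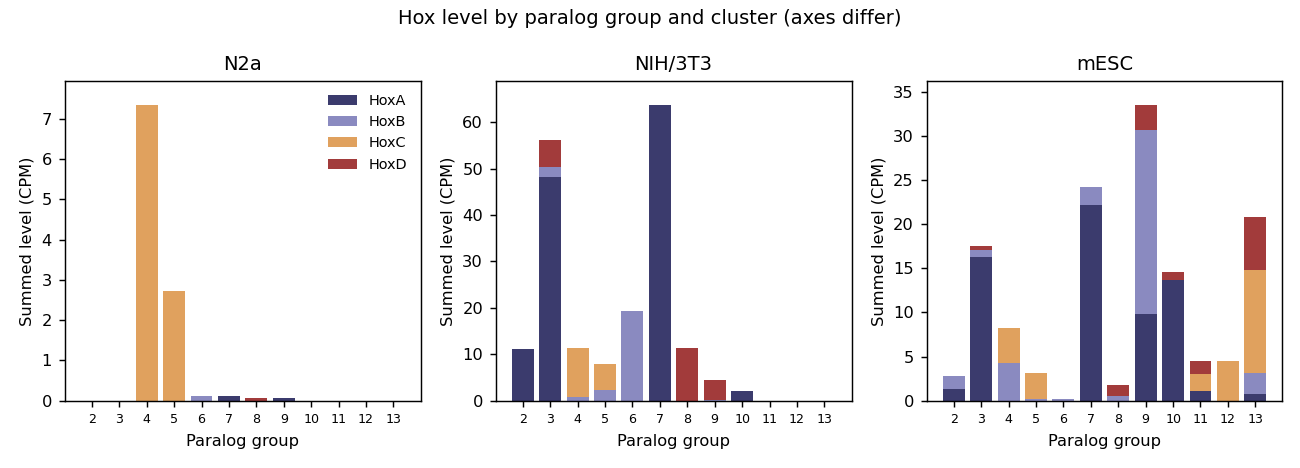
Hox level in CPM summed over the genes of paralog groups 2 to 13, with colors for the clusters and a separate vertical axis for each line. N2a has bars at groups 4 and 5 from HoxC (7.35 and 2.73 CPM), NIH/3T3 has none in groups 11 to 13, and mESCs reach 20.8 CPM in group 13, with genes of all 4 clusters.

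Each line occupied 32 BC1 sequences, which are wells of 1 culture and give a technical spread rather than replicates. The summed Hox level at single BC1 sequences had a lowest, median, and highest value of 2.11, 10.2, and 18.3 CPM in N2a. The same values were 145, 194, and 233 CPM in NIH/3T3 and 90.6, 152, and 217 CPM in the mESCs. N2a thus did not overlap the other lines at any BC1 sequence, while NIH/3T3 and mESCs overlapped.

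Single genes were found across the wells of the lines in which they were on. Hoxa2, Hoxa3, Hoxa7, and Hoxb6 had UMIs at all 32 BC1 sequences of NIH/3T3, and Hoxa3, Hoxa10, and Hoxb9 at all 32 of mESCs. In N2a, Hoxc4 had UMIs at 31 of 32 BC1 sequences and Hoxc5 at 26, whereas HoxA had UMIs at 5, with no more than 1 UMI at any of them. Hoxb9 ranged from 8.37 to 41.1 CPM over the mESC wells and from 0 to 3.66 CPM over those of NIH/3T3, and Hoxb6 ranged from 6.16 to 33.5 CPM in NIH/3T3 and from 0 to 2.51 CPM in mESCs. Neither gene's wells overlapped between these lines.

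**Figure D3:**
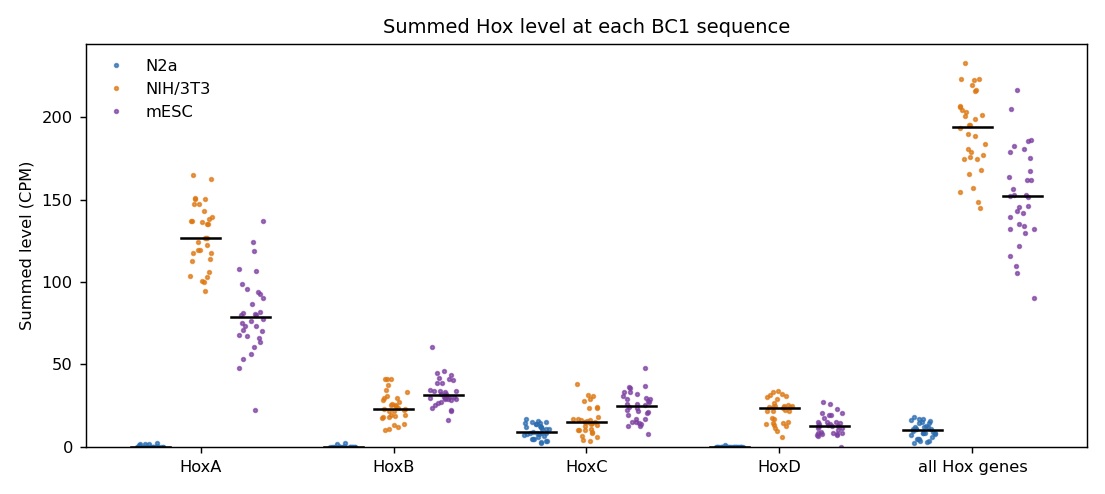
Summed CPM of each cluster and of all Hox genes at the 32 BC1 sequences of each line, with a point per BC1 sequence and a black bar at the median. N2a points for HoxA, HoxB, and HoxD sit at or near 0, its HoxC points run from 2.11 to 16.8 CPM, and NIH/3T3 and mESC points overlap in every cluster.

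At the level of single cells, Hox transcripts were sparse in all 3 lines. At least 1 Hox UMI was found in 159 of 2323 N2a cells (6.84%, exact binomial interval 5.85% to 7.95%), 1139 of 2037 NIH/3T3 cells (55.9%, 53.7% to 58.1%), and 1015 of 2137 mESCs (47.5%, 45.4% to 49.6%). The median depth was 6185, 4863, and 4803 UMIs, so N2a had the lowest share in spite of the deepest cells. When every cell was thinned to 1000 UMIs, the shares were 1.11%, 16.9%, and 13.7%, in the same order. UMIs of a single Hox gene came from small parts of the cells: Hoxa7 was found in 26.7% of NIH/3T3 cells (24.7% to 28.6%), 10.2% of mESCs, and 0.0861% of N2a cells, and Hoxb9 in 10.4% of mESCs (9.13% to 11.8%), 0.0982% of NIH/3T3 cells, and 0% of N2a cells. Hoxc4 was found in 5.12% of N2a cells (4.26% to 6.10%), 5.65% of NIH/3T3 cells, and 2.20% of mESCs.

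Cells with UMIs from more than 1 cluster made up a larger share in NIH/3T3 and mESCs than in N2a. At least 2 clusters were seen in 325 NIH/3T3 cells (16.0%, 14.4% to 17.6%) and 308 mESCs (14.4%, 12.9% to 16.0%), against 3 N2a cells (0.129%). The highest number of Hox UMIs in any N2a cell was 4, against 15 for NIH/3T3 and 16 for mESCs, and the highest number of different Hox genes was 2, 6, and 7. Cells with at least 3 Hox UMIs were 12.9% of NIH/3T3 cells and 9.45% of mESCs, and they were deeper, with a median of 8958 UMIs against 4370 in the remaining NIH/3T3 cells and 9732.5 against 4464 in mESCs. With an equal Hox level in every cell, the depths alone would give at least 3 Hox UMIs in 12.6% of NIH/3T3 cells and 8.41% of mESCs. Doublets were not called, and beyond this expectation the part of depth and doublets in these counts was not tested.

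**Figure D4:**
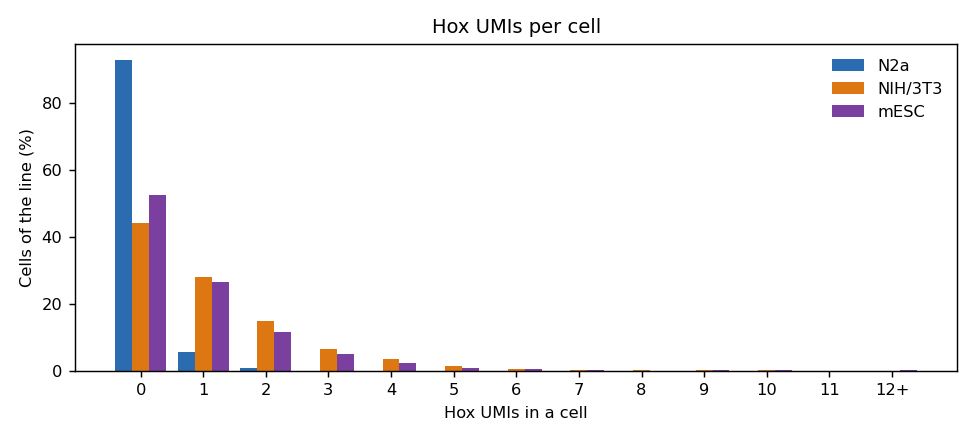
Share of the cells of each line, in percent, by the number of Hox UMIs in the cell, with cells of 12 or more in the last bin. Most N2a cells have none, whereas 55.9% of NIH/3T3 cells and 47.5% of mESCs have at least 1.

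To describe whether Hox genes were found in the same cells, the genes named above as on in a line were paired. The level of 1 gene was compared between cells with and without a UMI of the other, and all pairs below are pairs of these named genes. In mESCs, all 6 pairs within a cluster were HoxA pairs, and the level was 1.07 to 2.89 times as high in cells with the other gene (median 2.56), with the interval above 1 for 5 pairs. The 15 pairs from different clusters had ratios of 0.627 to 1.95 (median 1.04), and no interval lay above 1 (0 pairs). Hoxa10, for example, was at 34.5 CPM in the 101 mESCs with a Hoxa9 UMI and 11.9 CPM in the others, a ratio of 2.89 (1.90 to 4.27). Hoxb9 was at 17.7 CPM in mESCs with a Hoxa7 UMI and 21.4 CPM in those without. The median ratio in mESCs was thus higher for HoxA pairs than for pairs of a HoxA gene with Hoxb9, Hoxc13, or Hoxd13 and for pairs among these, which is a description of sparse counts and not a test.

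Cells with a UMI of a given gene were deeper, with a median of 8888 UMIs for mESCs with Hoxa9 against 4718.5 for those without, and levels in CPM were compared for that reason. Leaving out the 7 mESCs with at least 8 Hox UMIs, the HoxA pairs had a median ratio of 2.19, with 5 intervals above 1, and the pairs from different clusters had a median of 0.957. In NIH/3T3, the ratios of both kinds of pairs overlapped, as they did in mESCs, and the medians lay closer together. The 5 pairs within a cluster had a median of 1.33, with 2 intervals above 1. The 23 pairs from different clusters had a median of 1.04, also with 2 above 1 and 1 below. Without the 10 NIH/3T3 cells of at least 8 Hox UMIs, the medians were 1.27 and 1.01, with 1 interval above 1 within clusters and none between them (0 pairs). The intervals cover counting error and were not adjusted over the pairs.

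**Figure D5:**
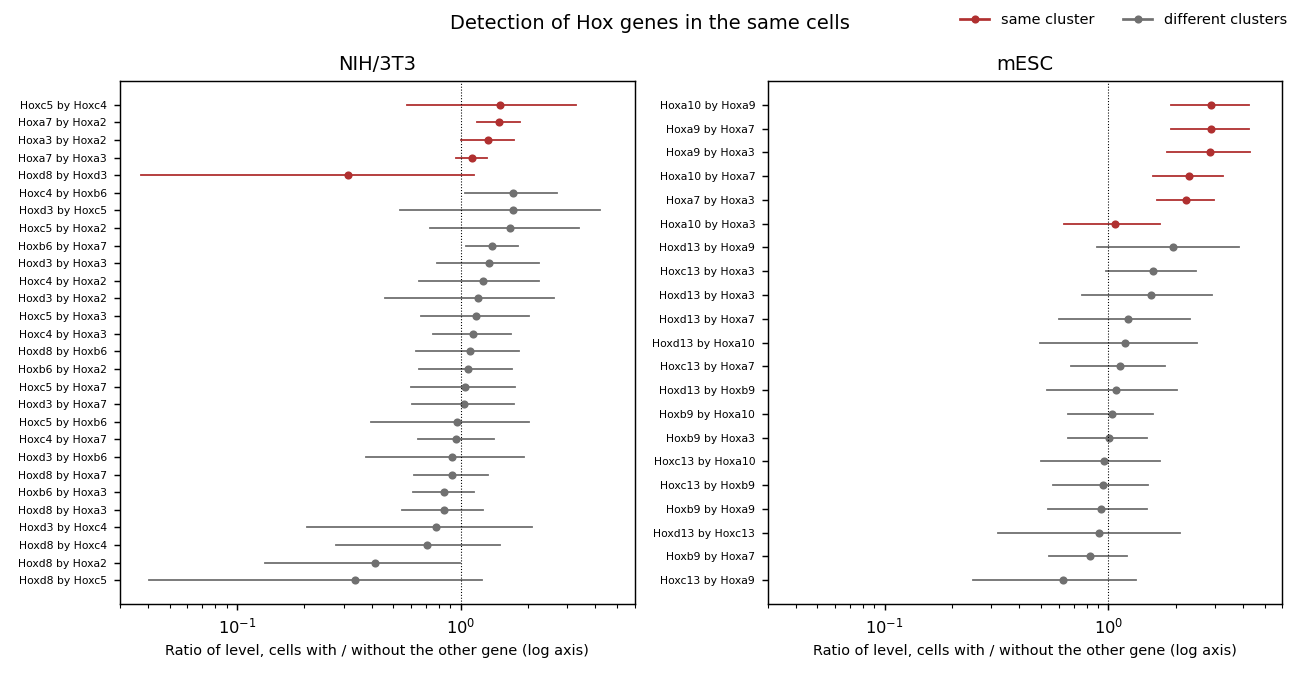
Ratio of the level of a Hox gene in cells with a UMI of another Hox gene to its level in cells without, on a log axis with 95% intervals, in red for pairs of the same cluster and in gray for pairs of different clusters. In mESCs, the HoxA pairs lie between 1.07 and 2.89 and the other pairs between 0.627 and 1.95. The ranges of the 2 kinds of pairs overlap in both lines.

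Hox proteins bind DNA together with TALE homeodomain cofactors of the Pbx, Meis, and Pknox families. These were on in N2a as well, despite its low Hox level: 8 of 9 were on in each line, with summed levels of 912 CPM in N2a, 856 in NIH/3T3, and 695 in the mESCs. Of protein-coding genes with a readable model, 48.0% were on in N2a, 46.4% in NIH/3T3, and 49.4% in the mESCs. The same background applies to the counts of retinoid, Trithorax, and neighboring genes below. The TALE members differed, and none met the 4-fold criterion in any line (0 genes). Pbx3 was at 553 CPM in N2a, 250.1 in NIH/3T3, and 117 in the mESCs, and Meis1 at 147, 37.0, and 15.2 CPM in the same order. Meis2 ran the other way, with 13.1, 89.0, and 321 CPM.

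Regulators of the clusters were uneven. Cdx1, a caudal transcription factor that activates Hox genes in the posterior embryo, was at 35.7 CPM in mESCs (32.4 to 39.2), 0.0855 in NIH/3T3, and 0.223 in N2a, and the other 2 caudal genes, Cdx2 and Cdx4, were below 5 CPM in all lines. Among 5 retinoid genes, which relay or degrade the retinoic acid signal that induces Hox genes, the receptor Rarb was at 35.8 CPM in mESCs, 2.56 in NIH/3T3, and 1.00 in N2a, and Rarg at 80.7, 82.6, and 0.446 CPM. Rara and the retinoic acid-degrading enzyme gene Cyp26b1 were highest in N2a, with 31.3, 43.6, and 69.3 CPM for Rara and 2.03, 10.7, and 23.4 CPM for Cyp26b1, and Cyp26a1 stayed below 5 CPM in all lines. The retinoid genes that were on numbered 2 in N2a, 3 in NIH/3T3, and 3 in the mESCs. All 3 genes of the Trithorax list, Kmt2a, Men1, and Psip1, which maintain Hox expression, were on in all 3 lines.

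Noncoding transcripts of the clusters were low where Hox genes were low. Of 9 such transcripts, 8 were listed, and 0 were on in N2a, 3 in NIH/3T3, and 1 in the mESCs. Of all listed genes, 31.3%, 30.4%, and 32.1% were on in the same order. Hotairm1, a transcript of the HoxA cluster, had 0 UMIs in N2a, 18.5 CPM in NIH/3T3 (16.1 to 21.1), and 10.3 in the mESCs (8.59 to 12.3). Hoxd3os1, antisense at Hoxd3, was at 0.0557 CPM in N2a, 13.0 in NIH/3T3, and 0.487 in the mESCs, the same order as Hoxd3. Hoxaas3 was at 5.13 CPM in NIH/3T3 and 2.68 in the mESCs, and Hotair, a transcript of the HoxC cluster, had 0 UMIs in all 3 lines.

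Genes flanking the clusters did not share the low level of N2a throughout. Of 10 neighbors, 5 were on in N2a, 7 in NIH/3T3, and 8 in the mESCs. The N2a count was near the 48.0% of protein-coding genes with a readable model that were on in N2a. Cbx5, beside HoxC, was at 672 CPM in N2a, 658 in NIH/3T3, and 696 in the mESCs, and Mtx2 and Lnpk, beside HoxD, were at 66.3 CPM or more in every line. Skap2, beside HoxA, was as low as the cluster in N2a (0.278 CPM), but it was higher in mESCs (219 CPM) than in NIH/3T3 (130 CPM), the reverse of HoxA, and Snx10, further out on the same side, was at 114, 65.8, and 70.4 CPM. Ttll6, near the posterior end of HoxB, was at 28.8 CPM in mESCs and at 0.427 CPM or less in the other lines. Evx1 and Evx2, the homeobox genes at the posterior ends of HoxA and HoxD, had no more than 2 UMIs in any line.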

How the data were processed

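RNA of N2a, NIH/3T3, and mESC cells was measured by CapSeq split-pool single-cell RNA sequencing. According to the paper's methods and the labels, reads were split by BC1, trimmed, and counted with STARsolo on GRCm39 with GENCODE annotation. That GENCODE release was earlier than the one used here for gene models. The authors deposited raw UMI counts per gene and barcode without a cell filter. The counting mode (exons or whole gene bodies) was not given in the sources used here. The pooled matrix came from the same reads and was used in an alternative only.

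Counts were summed over cells passing the study's filter (at least 1000 UMIs, at most 20% mitochondrial UMIs) and divided by the line's total to give CPM. With 1 library per line, no test was made. Intervals at the 95% level are exact Poisson for levels, exact binomial for shares, and exact conditional binomial for ratios. A floor of 3 counts stands for 0. A count of 1 was added to CPM for the 4-fold criterion. Gene positions, exon lengths, and start sites were taken from GENCODE M39 on GRCm39, where 32953 of 33565 identifiers were found, and sequences from the GRCm39 genome. Thinning to 1000 UMIs was computed as the expected share. No doublet caller was run. The members and gene lists were chosen with earlier results of these data known. Values are given for every Hox gene with at least 5 CPM in a line and for the 3 leading genes of each line, the rest by counts and ranges, and the low or zero members named beside them were chosen after their values were seen. Alternatives changed the cell filter, the calling rule, the matrix, the weight of cells, the thresholds, and the genes included. For certain genes and promoter sequences, single values are not reported here, and their UMIs remain in the sums and counts of genes. The computation of the fold calls was run on simulated data, which checks the computation alone and not a difference between lines. Python 3.11.15, numpy 2.4.6, scipy 1.17.1, and pandas 2.3.3 were used.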

Additional observations from a re-analysis of the deposited data

How the results depend on the processing

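The leading cluster of each line was the same in all 24 pairs of line and setting, and 95 of 96 cluster levels stayed inside the Poisson interval of the value reported, the exception being HoxD in N2a, at 0 CPM without the 5% of cells with the most UMIs. The level that counts as on moved the numbers: at 2 CPM, 15 Hox genes were on in mESCs, 13 in NIH/3T3, and 2 in N2a, and at 10 CPM 0 were on in N2a. At a fold of 2, 7 genes were higher in NIH/3T3 and 14 in the mESCs, and at a fold of 8, 1 and 3. The shares of all listed genes at these other thresholds are not given, so these counts describe the Hox genes alone. Without the spanning genes Hoxa3, Hoxc5, and Hoxd3, chosen after seeing the data, the sums were 7.80 CPM in N2a, 130.2 in NIH/3T3, and 131 in the mESCs. The share of cells with a Hox UMI followed depth. With STARsolo's default calling rule it was 58.8% in NIH/3T3 and 50.9% in the mESCs, at a minimum of 500 UMIs 53.1% and 44.5%, and at 2000 UMIs 60.4% and 51.7%. After thinning to 1000 UMIs the NIH/3T3 share was 16.9%, that of mESCs 13.7%, and that of N2a 1.11%, and without the 5% deepest cells 5.85% in N2a. In each of these, N2a had the lowest share. No paired analysis was possible because each line had 1 library. Counting 3 UMIs as the limit, a gene with 0 UMIs could have had up to 0.167 CPM in N2a, 0.256 in NIH/3T3, and 0.243 in the mESCs, and the 8 unreadable genes are not covered by this limit.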

Other observations

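The intervals of the Hox level overlapped between mESCs with and without a UMI of a pluripotency marker. In the 116 mESCs without a UMI of Zfp42, a gene of naive pluripotency, the summed Hox level was 153 CPM (107 to 212, median depth 1708.5 UMIs), and in the 2021 cells with Zfp42 it was 151 CPM (144 to 158, median depth 5022 UMIs). HoxC had 0 UMIs in the cells without Zfp42, for which 3 UMIs would be 12.8 CPM, and 25.6 CPM in the cells with it.

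In the 202 mESCs with at least 3 Hox UMIs, Zfp42 was at 1344 CPM and Pou5f1 at 56.4 CPM, against 1313 and 58.1 CPM in the other 1935 cells. Dppa5a was at 1629 CPM (1574 to 1684) against 1860 (1834 to 1887), and Cdx1 at 44.9 CPM (36.3 to 55.0) against 33.8 (30.4 to 37.6). The cells with at least 3 Hox UMIs were deeper, and the part of depth in these differences was not tested.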
